A study of Mus musculus with 27 samples.

Results

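The transcriptomes of epididymal white adipose tissue (WAT), the visceral fat pad beside the testis, and of gastrocnemius, a mixed-fibre calf muscle, were compared in mice kept on the normal diet (ND). The comparison used the 6 ND arrays of these tissues among the 27 arrays of the series, 3 for each tissue, and levels in liver come from the 3 ND liver arrays. Arrays of the same 2 tissues from mice on a high-fat diet (HFD, 20% fat and 1% cholesterol) and from mice on the HFD with 0.05% of the plant triterpenoid ursolic acid (UR), 3 for each tissue and diet, are used at the end. The animals were male C57BL/6J mice (the strain field of the labels spells it C56BL/6J) that arrived at 4 weeks of age, were acclimated on the AIN-76 semi-purified diet and then ate the ND for 16 weeks, with 10 mice per diet by the labels. The authors' methods give more mice than the labels for the HFD and for UR. By those methods the mice were fasted before tissue was taken. They carried no transgene, deletion or drug, and both tissues came from the same diet arm. Each array held total RNA pooled within a tissue, so every n counts pools. The sources used here do not say which mice made up a pool, nor whether equal pool numbers in the 2 tissues mean equal mice, and a whole fat pad or muscle also holds vessels, immune cells, nerve and connective tissue.

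Adipocytes store triglyceride in a single large droplet, release it as fatty acids in fasting, and secrete hormones such as leptin and adiponectin. Myofibres are built of sarcomeres, in which myosin thick filaments pull on actin thin filaments when calcium leaves the sarcoplasmic reticulum, and they pay for contraction with creatine phosphate, glycolysis and mitochondrial respiration. Many enzymes of these pathways are encoded by several genes, of which a particular member serves striated muscle.

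A probe was taken as detected on an array at a detection p under 0.05, and 19365 of the 45281 probes were detected on all 3 arrays of WAT or on all 3 of muscle. The brightest of these stood for each of 10695 named genes. Levels are log2 of the quantile-normalized signal, and a difference is WAT minus muscle, so that a positive difference is higher in WAT and 1 unit is 2-fold. Total signal before normalization was 42970504 to 45013505 on the ND WAT arrays and 26791762 to 31855725 on the ND muscle arrays, and 42.2 to 43.5% of probes were detected in WAT against 35.8 to 36.7% in muscle. Arrays of a tissue correlated at 0.994 to 0.996 over the kept probes and arrays of different tissues at 0.721 to 0.733. The number of arrays limits the precision of every value below.

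The tissue labels fitted the markers. Of 15 adipocyte markers listed, 13 were measured, and their summed normalized signal was 225000 to 242600 on the WAT arrays against 4174 to 4479 on the muscle arrays. The brightest markers weigh most in such a sum. Gene by gene, 12 were higher in WAT and 1, Cidea (-0.94), in muscle, while Retn and Fabp4 were dim in WAT (means 8.33 and 8.12). Of 15 skeletal myofibre markers, 14 were measured, with 508600 to 525400 in muscle against 5534 to 7154 in WAT. Of those 14, 8 were not detected on any WAT array. Cfd, Adrb3 and Myh2 of these lists were not analysed here. In whole-tissue RNA fewer cells of a type and less RNA per cell cannot be told apart. Of 12 male reproductive tract markers and of 12 hepatocyte markers on the array, 11 each were not detected on all arrays of either tissue.

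The DNA in front of 4 muscle genes and 2 fat genes is shown because these genes carry large differences below and hold matches to motifs of muscle or fat transcription factors, for which they were picked. The 250 bases before the annotated start are given 5′ to 3′ from RefSeq (GRCm38.p6), with matches to the motifs below in capitals and the rest in lower case. Myl3 encodes a slow myosin light chain, Ttn the giant sarcomere spring titin, Mylpf the fast regulatory light chain, Pygm muscle glycogen phosphorylase, Lep leptin and Plin1 perilipin 1, the droplet coat of the adipocyte. The capitals mark a CArG box and an M-CAT element in Myl3, a MEF2 site in Ttn, the E-box CAGCTG in Mylpf and, 168 and 8 bases before the start, in Pygm, and a C/EBP-type element (TTGCNNAA) in Lep and, 187 and 58 bases before the start, in Plin1.
Myl3 (chr9:110763428-110763677, plus strand): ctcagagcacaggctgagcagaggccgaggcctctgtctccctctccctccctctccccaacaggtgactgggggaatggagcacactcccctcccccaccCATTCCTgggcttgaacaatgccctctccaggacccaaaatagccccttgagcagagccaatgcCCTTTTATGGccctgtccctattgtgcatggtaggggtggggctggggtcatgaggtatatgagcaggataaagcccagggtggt
Ttn (chr2:76982548-76982797, minus strand): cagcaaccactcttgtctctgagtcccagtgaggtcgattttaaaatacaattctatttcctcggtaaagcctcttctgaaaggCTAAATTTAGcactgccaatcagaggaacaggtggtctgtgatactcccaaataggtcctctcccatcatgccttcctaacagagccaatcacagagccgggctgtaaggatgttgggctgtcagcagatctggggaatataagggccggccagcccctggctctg
Mylpf (chr7:127211358-127211607, plus strand): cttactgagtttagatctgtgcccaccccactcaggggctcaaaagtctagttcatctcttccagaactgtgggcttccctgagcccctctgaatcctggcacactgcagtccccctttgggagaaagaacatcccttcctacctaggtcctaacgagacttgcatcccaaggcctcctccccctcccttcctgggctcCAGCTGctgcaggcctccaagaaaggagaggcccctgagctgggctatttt
Pygm (chr19:6384158-6384407, plus strand): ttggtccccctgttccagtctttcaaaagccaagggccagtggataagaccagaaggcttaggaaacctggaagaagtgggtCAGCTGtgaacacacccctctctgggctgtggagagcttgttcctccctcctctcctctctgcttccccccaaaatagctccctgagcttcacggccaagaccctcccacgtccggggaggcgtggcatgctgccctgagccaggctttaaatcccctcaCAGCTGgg
Lep (chr6:29059971-29060220, plus strand): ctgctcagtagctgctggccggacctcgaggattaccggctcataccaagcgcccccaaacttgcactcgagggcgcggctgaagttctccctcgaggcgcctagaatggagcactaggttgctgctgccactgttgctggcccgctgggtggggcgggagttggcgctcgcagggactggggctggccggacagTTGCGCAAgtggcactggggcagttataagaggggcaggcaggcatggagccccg
Plin1 (chr7:79732777-79733026, minus strand): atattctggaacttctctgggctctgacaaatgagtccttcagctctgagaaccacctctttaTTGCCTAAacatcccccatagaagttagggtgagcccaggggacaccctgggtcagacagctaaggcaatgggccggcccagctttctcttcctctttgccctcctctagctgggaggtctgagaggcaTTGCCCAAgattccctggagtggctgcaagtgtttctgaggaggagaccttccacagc

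Both strands of these 250 bases were searched for 8 motifs, and a gene was counted if any of its listed promoters held a match. Of the 100 genes highest in muscle, 79 had a promoter in the RefSeq table, as had 68 of the 100 highest in WAT and 8648 of the tested genes; the table holds 27025 genes. The E-box CAGCTG, a site of the myogenic MyoD family, was in 39.2% of the muscle set, 14.7% of the WAT set, 14.7% of the tested genes and 14.7% of all genes in the table. MEF2 sites were found in 17.7%, 2.94%, 2.23% and 3.42% of these sets, and CArG boxes, sites of SRF, in 5.06%, 1.47%, 1.6% and 1.62%.

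The C/EBP-type element was found in 17.7% of the muscle set, 23.5% of the WAT set, 9.31% of the tested genes and 10.8% of all genes. For the M-CAT element CATTCCT, read by TEAD factors, the shares in the same order were 7.59%, 2.94%, 4.61% and 5.19%. The receptor element AAGGTCA, read by the estrogen-related receptors, gave 5.06%, 5.88%, 3.63% and 4.7%. The clock-factor site CACGTG gave 7.59%, 10.3%, 10% and 6.86%, and the TATA box TATAAA 13.9%, 16.2%, 8.73% and 14.3%. A match is only a run of letters, and no test was made of these shares.

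Fat and muscle differed in most of what they expressed. Of 10695 genes, 8861 (82.9%) passed limma's test at an adjusted p under 0.05, 4831 (45.2%) higher in WAT and 4030 (37.7%) higher in muscle. At least 2-fold were 3083 genes (28.8%), 1775 (16.6%) toward WAT and 1308 (12.2%) toward muscle. Those percentages are the background against which the counts of members below are to be read. The arrays of the 2 tissues did not overlap in 9036 genes (84.5%).

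Muscle held fewer but larger differences. At 64-fold or more, 59 genes were higher in muscle and 14 in WAT, whereas at 4-fold 501 were higher in muscle and 592 in WAT. A total of 1368 genes were detected on all WAT arrays and on no muscle array. On all muscle arrays and on no WAT array 335 were detected. Such genes were kept through 1 tissue alone, which favours a difference toward that tissue but does not force one. The same holds for members of the lists below that were detected in only 1 tissue. The split between the tissues depended on the scaling, and unnormalized WAT arrays were the brighter ones. The median difference of all genes was 0.08 after quantile normalization and 0.43 after median scaling, under which 6673 genes were higher in WAT and 2305 in muscle, and 0.90 with no normalization. Differences below are therefore to be read against a median gene near 0. At the upper end the scale was bounded: the brightest raw signal on the 6 arrays was 63376 to 69609, and 31 genes in WAT and 36 in muscle had a mean within 0.5 of the highest level, 16.05, so that a difference between genes that bright may be understated.

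**Figure D1:**
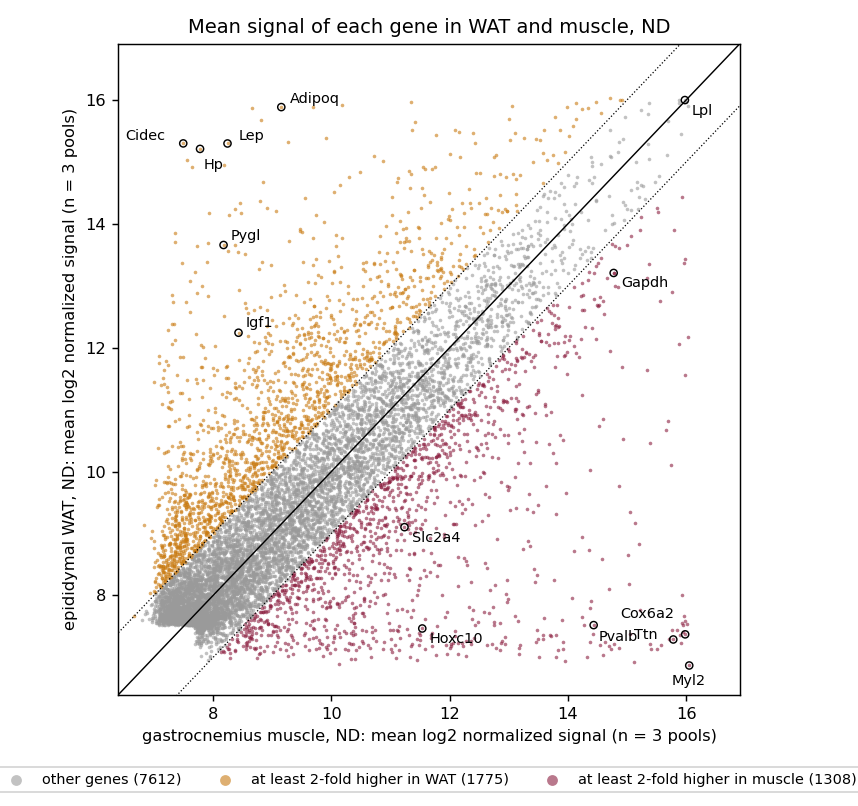
Each point is a gene, placed by its mean log2 normalized signal in gastrocnemius muscle (horizontal) and epididymal WAT (vertical) on the ND, with n = 3 pools each; the solid line marks equal signal and the dotted lines 2-fold. The 1308 genes 2-fold higher in muscle reach further from the line than the 1775 higher in WAT, and Lpl lies at the top of the scale in both tissues.

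The 15 largest differences toward WAT included the droplet gene Cidec, the hormones Lep and Adipoq and the plasma proteins Hp, Trf and Apoc1. Cidec, which fuses small droplets into the large one of the adipocyte, gave 15.20, 15.31 and 15.37 on the 3 WAT arrays and 7.53, 7.63 and 7.33 on the muscle arrays, where it was not detected, and was at least 199-fold higher in WAT (difference 7.80, SE 0.0866, limma adjusted p = 4.01e-14). Leptin (Lep), the satiety hormone, gave 15.43, 15.01 and 15.45 in WAT and 8.54, 8.03 and 8.16 in muscle, and adiponectin (Adipoq), the insulin-sensitizing hormone, 15.86, 15.85 and 15.94 and 9.27, 9.19 and 9.0. Adipoq was detected on all muscle arrays, whereas in the liver of ND mice the same probe had a mean of 7.58 and was not detected. Aoc3, a vascular and adipocyte amine oxidase, gave 15.89, 15.85 and 15.89 in WAT and 9.58, 9.78 and 9.70 in muscle, and in liver it was not detected.

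Of the 15 genes with the largest WAT differences, 9 were also detected on all 3 ND liver arrays. Haptoglobin (Hp), which binds free haemoglobin, gave 15.33, 15.15 and 15.14 in WAT, 7.94, 7.87 and 7.53 in muscle and a mean of 15.71 in liver. Transferrin (Trf), the iron carrier, differed by 6.87, apolipoprotein C-I (Apoc1) by 6.50, cysteine dioxygenase (Cdo1), the first enzyme of taurine synthesis, by 7.28, the ethanol and fatty acid oxidizing cytochrome Cyp2e1 by 7.21, and the glutathione transferase Gsta3 by 5.91. The other members of the 9 were Cidec, Smoc1 (6.36), a matrix protein, and Mmd (6.06). Of the 15, 6 were not detected on any ND liver array, among them Lep, Adipoq and Aoc3. The others were Prkar2b (difference 6.75), the regulatory subunit of protein kinase A that predominates in fat, the glutamate transporter Slc1a3 (6.24) and the membrane protein Tmem45b (7.47). Over the 15, WAT arrays ran from 13.52 to 15.94 and muscle arrays from 7.15 to 9.78, with limma adjusted p of 3.14e-14 to 4.59e-12. An adjusted p under 0.05 and no overlap between the tissues were required of the 15 genes in each direction.

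In muscle the 15 largest differences were mostly genes of the sarcomere. The slow regulatory myosin light chain Myl2 gave 16.05, 16.05 and 16.05 on the muscle arrays and 6.76, 6.86 and 6.99 on the WAT arrays, where it was not detected, and was at least 374-fold higher in muscle (difference -9.18, SE 0.0724, adjusted p = 5.21e-15 by limma). Its partner Myl3 gave 15.91, 15.89 and 15.95 in muscle against 7.23, 7.30 and 7.17 in WAT, at least 341-fold. The calcium pump of fast fibres, Atp2a1 (SERCA1), gave 15.98, 15.94 and 15.93 in muscle and 7.42, 7.47 and 7.32 in WAT. Cox6a2, the muscle form of a cytochrome c oxidase subunit, gave 15.98, 15.99 and 15.97 against 7.39, 7.40 and 7.33.

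Where a gene was not detected in WAT its difference rests on background signal there. The rest were the titin cap Tcap (difference -8.53), titin (Ttn, -8.49), the troponins Tnnc2 (-8.48), Tnnc1 (-8.41), Tnni2 (-8.38) and Tnnt3 (-8.37), myoglobin (Mb, -8.41), the fast light chain Mylpf (-8.40), the Z-disc crosslinker Actn2 (-8.39), mitochondrial creatine kinase (Ckmt2, -8.37) and the fatty acid carrier Fabp3 (-8.31). Slow-fibre genes (Myl2, Myl3, Tnnc1) thus stood beside fast-fibre genes (Tnnc2, Tnni2, Tnnt3, Mylpf, Atp2a1) in this mixed muscle. Muscle arrays ran from 15.50 to 16.05 over the 15 and WAT arrays from 6.76 to 7.63, and the adjusted p from 4.56e-15 to 1.06e-14. Of the 15, 11 were not detected on any WAT array and 14 were not detected on any ND liver array. Of the 15 muscle means 14 lay within 0.5 of the top of the scale, and the order of these genes among themselves is not to be read.

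**Figure D2:**
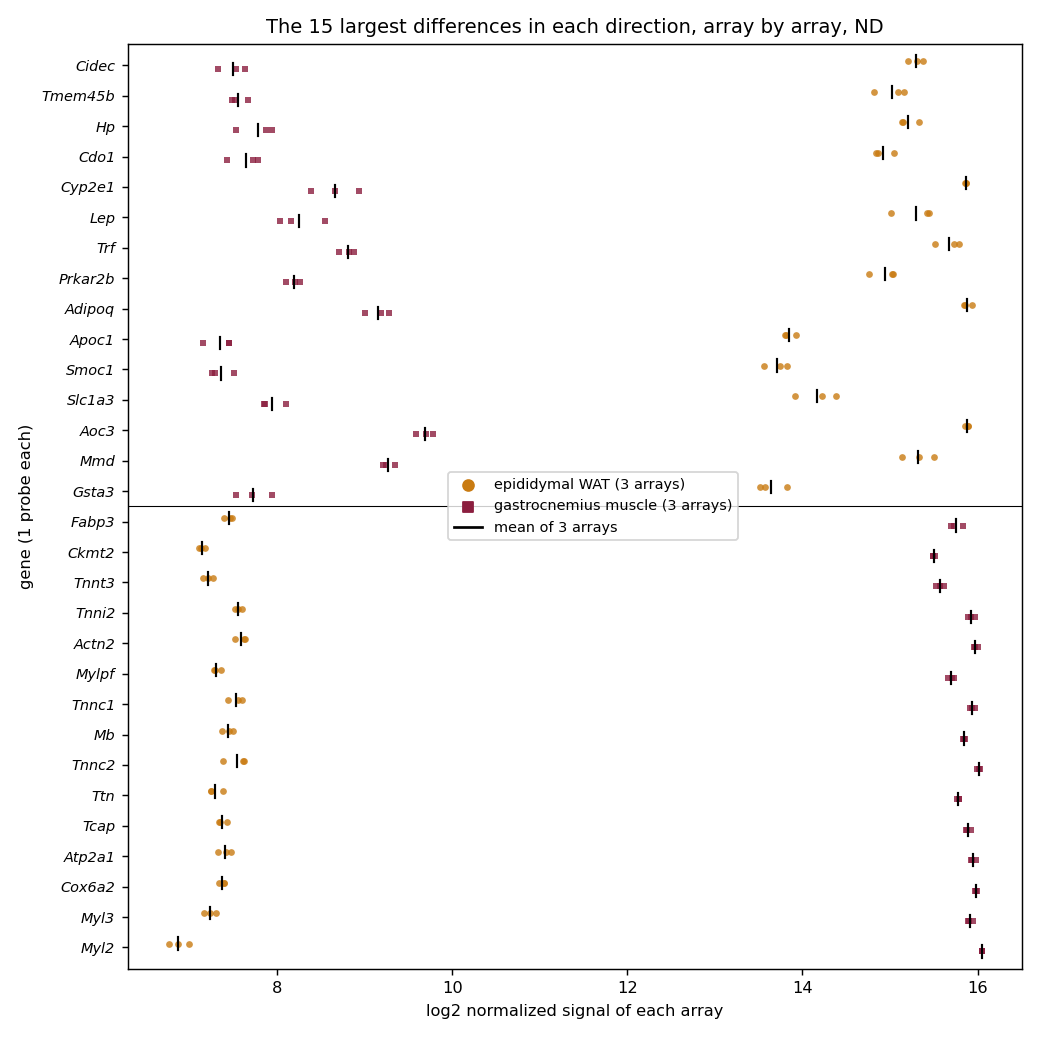
Log2 normalized signal of each of the 3 WAT arrays (circles) and 3 muscle arrays (squares) for the 15 genes with the largest difference in each direction, with the mean of each group as a bar. Genes were required to have no overlap between the groups. The muscle genes sit between 15.50 and 16.05 in muscle, and the WAT genes between 13.52 and 15.94 in WAT.

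Genes of the contractile machinery were mostly higher in muscle. Of 19 thick-filament and M-band genes measured, 19 were higher in muscle and 0 in WAT, against 37.7% of all tested genes higher in muscle, with a median difference of -5.60 against 0.08 over all genes. On the WAT arrays 12 of the 19 were never detected, so that these were kept through muscle alone. Of 34 thin-filament and Z-disc genes 33 were higher in muscle (median -6.11). Of the 34, 18 were likewise detected on no WAT array, while 13 were detected on all 3 WAT arrays. Myh1, the myosin heavy chain of fast IIx fibres, gave 13.89, 13.95 and 13.91 in muscle and 7.11, 7.08 and 7.24 in WAT, and Myh7, that of slow fibres, 11.63, 11.43 and 11.37 and 7.20, 7.24 and 7.14. Myh4, the heavy chain of the fastest IIb fibres, varied between the muscle pools (12.33, 9.77 and 11.20) and still lay above the WAT arrays (7.02, 6.95 and 6.99). The exception was Tpm1, a tropomyosin that non-muscle cells also use: its brightest probe gave 11.75, 12.004 and 11.62 in WAT and 10.07, 10.23 and 10.09 in muscle (difference 1.66, SE 0.0972, limma adjusted p = 3.29e-08), and its other kept probe differed the same way (1.32).

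Genes of excitation-contraction coupling, which link the nerve impulse to calcium release, followed: 18 of 21 were higher in muscle and 3 in WAT (median -3.87). Of the 21, 10 were not detected on any WAT array and so were kept through muscle alone. The release channel Ryr1 gave 14.39, 14.37 and 14.35 in muscle and 7.85, 7.82 and 7.71 in WAT (difference -6.57), and the calcium buffer Pvalb, named after its values were seen, 14.55, 14.41 and 14.34 and 7.52, 7.46 and 7.58. Hrc, a histidine-rich calcium binder of the reticulum, was at least 140-fold higher in muscle. The 3 higher in WAT were Asph (2.75), Fkbp1a (1.05) and the calmodulin gene Calm3 (0.40), all used outside muscle. Asph encodes both a hydroxylase and the reticulum protein junctin, and its 13 kept probes ran from -4.41 to 2.75, and with any 1 WAT array left out another probe became the brightest and gave -4.43 to -4.37.

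At the neuromuscular junction 9 of 11 measured genes were higher in muscle and 2 in WAT (median -1.30, and -0.75 with median scaling), and 5 of the 11 were not detected on any WAT array, while Ache, Chrnd, Chrng and Colq were not detected on all arrays of either tissue. The acetylcholine receptor subunit Chrna1 gave 12.08, 12.20 and 12.16 in muscle and 7.09, 7.07 and 7.02 in WAT, and Rapsn, which anchors the receptor, 10.19, 10.16 and 10.28 and 7.50, 7.28 and 7.49. The basal-lamina protein agrin (Agrn, 1.28) and the dystrophin relative utrophin (Utrn, 0.58) were higher in WAT. Of 14 muscle transcription factors measured, 12 were higher in muscle and 0 in WAT (median -1.33), and 6 of the 14 were not detected on any WAT array. Myf6, the myogenic factor of mature fibres, gave 12.76, 12.71 and 12.87 in muscle and 7.25, 6.997 and 7.19 in WAT, and the cofactor Vgll2 13.50, 13.42 and 13.54 and 7.25, 7.37 and 7.25. Myog (-0.14) and Mef2d (-0.16) did not pass the test, and Myod1 and Myf5 were not detected on all arrays of either tissue.

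In energy metabolism muscle was higher for most of the listed genes. A list of glycolysis and glycogen genes that holds mostly the muscle or ubiquitous forms had 20 members measured and 20 higher in muscle (median -2.17), while other forms of several of these enzymes were higher in WAT, as given with the paired forms: the glycolytic enzyme Eno3 gave 15.09, 14.95 and 15.01 against 8.53, 8.92 and 8.52 in WAT, and Gapdh, often used as a reference gene, 14.86, 14.74 and 14.71 against 13.26, 13.05 and 13.31. Slc2a4, the insulin-regulated glucose transporter of both tissues, gave 11.29, 11.21 and 11.20 in muscle and 9.04, 9.06 and 9.21 in WAT (difference -2.13). Of the phosphagen and purine nucleotide genes 8 of 10 were higher in muscle, among them the AMP deaminase Ampd1 (at least 117-fold). The 2 higher in WAT were brain-type creatine kinase Ckb and Gamt, which makes creatine (1.91; WAT arrays 10.85, 9.72 and 10.93).

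Of 69 oxidative phosphorylation genes 67 were higher in muscle, 1 in WAT and 1 not past the test, with a median of -1.41. By complex the medians were -1.41 for the 33 genes of complex I, -2.05 for the 3 of complex II, -1.33 for the 7 of complex III, -1.29 for the 11 of complex IV and -1.34 for the 14 of complex V. Single subunits lay far from these medians: Cox6a2 (at least 357-fold, since it was not detected in WAT and lay near the top of the scale in muscle), Cox7a1 (-6.38) and Cox8b (-4.87), the striated-muscle isoforms of complex IV, were furthest toward muscle, and Cox6a1 (2.39) was the member higher in WAT. Ndufv3 differed by -0.02 (adjusted p = 0.794, limma).

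In the citric acid cycle and pyruvate entry 24 of 30 genes were higher in muscle and 6 in WAT (median -1.42). Mitochondrial Idh2 gave 14.84, 14.93 and 14.95 in muscle and 11.74, 11.62 and 11.71 in WAT, and Pdk4, which blocks pyruvate entry, 15.83, 15.78 and 15.65 and 12.39, 13.24 and 13.06. The 6 toward WAT were Pck1 (3.50), Idh3b (2.91), pyruvate carboxylase Pcx (2.74), Aco1 (1.85), cytosolic Idh1 (1.76) and Pdk3 (1.45). Pck1 serves glycerol synthesis in fat, Pcx makes oxaloacetate, and Aco1 and Idh1 act in the cytosol. For Idh3b another kept probe passed the test the other way (-0.48). Of 26 fatty acid oxidation genes 24 were higher in muscle and 0 in WAT (median -1.08), led by Cpt1b, the muscle gate for fatty acid entry to mitochondria, at 14.40, 14.47 and 14.28 against 7.89, 7.89 and 7.95.

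Some factors known to drive mitochondrial and oxidative genes were higher in muscle, while Ppara, another, did not pass the filter on dim probes. The coactivator Ppargc1a (PGC-1 alpha), which drives mitochondrial genes, gave 11.90, 11.42 and 11.50 in muscle and 8.32, 8.41 and 8.19 in WAT. The estrogen-related receptors gave, in muscle and then in WAT, 12.38, 12.20 and 12.35 and 9.61, 9.43 and 9.63 (Esrra), 12.79, 12.44 and 12.51 and 7.80, 7.65 and 7.74 (Esrrg), and 12.26, 12.11 and 12.24 and 7.29, 7.23 and 7.19 (Esrrb). Over 19 nuclear receptors and steroid enzymes measured, 10 were higher in WAT and 9 in muscle, against 45.2% and 37.7% of all genes. The largest toward WAT were Hsd11b1 (4.36), which makes active glucocorticoid, and Pparg (4.35).

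**Figure D3:**
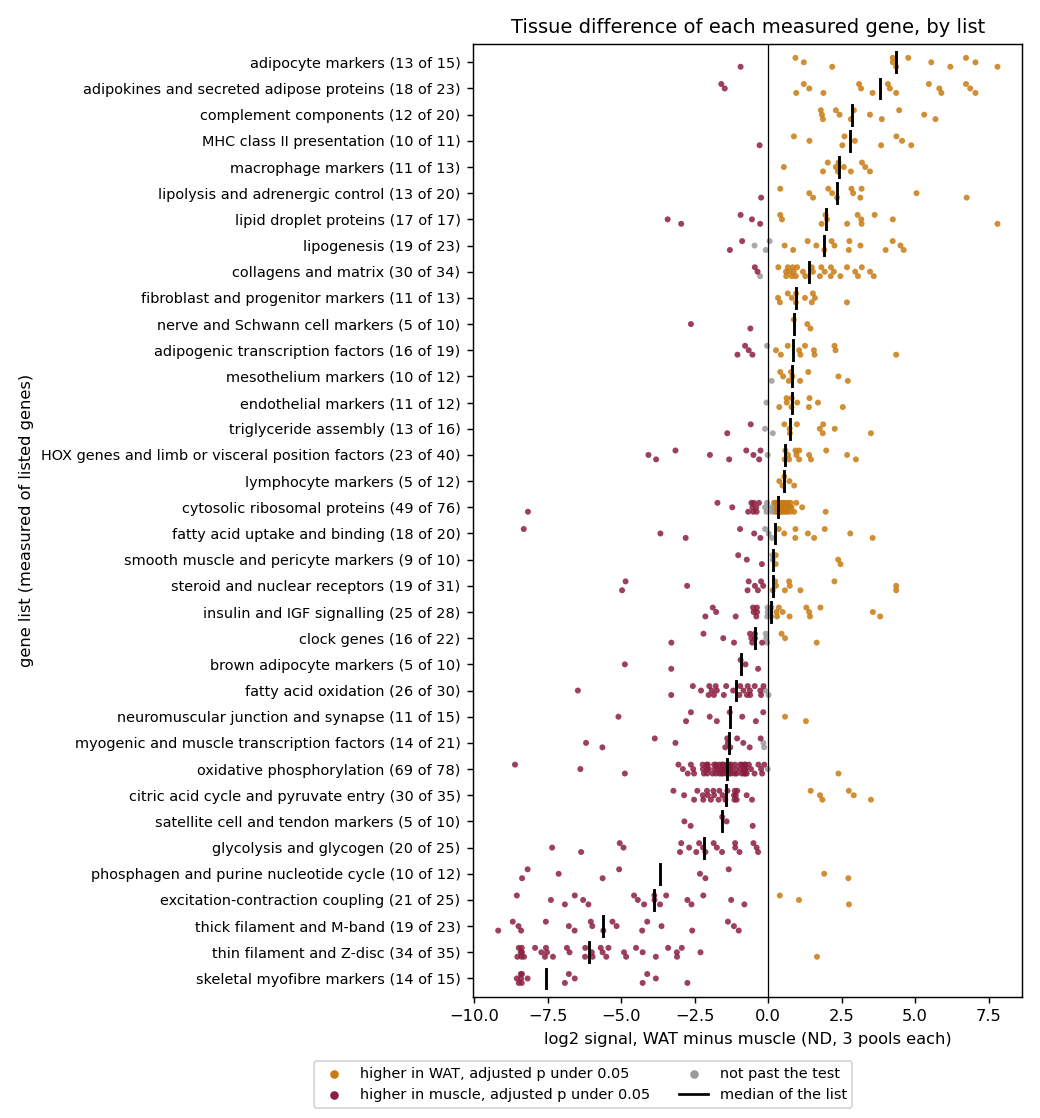
Log2 difference, WAT minus muscle, of every measured gene in each list of at least 5 measured genes, with the list median as a bar and the number measured of the number listed in brackets; colours mark genes past the test in each direction and grey those that were not. Lists are ordered by median, from 4.35 for adipocyte markers to -7.55 for skeletal myofibre markers, and the clock list changes sign with the scaling.

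Fat genes made the opposite end. Of 18 adipokine and secreted adipose genes measured, 16 were higher in WAT, against 45.2% of all tested genes, and 2 in muscle (median 3.81). Of these 18, 9 were not detected on any muscle array and so were kept through WAT alone. Retinol-binding protein 4 (Rbp4) gave 11.30, 11.30 and 11.49 in WAT and 7.20, 7.29 and 7.18 in muscle, and Mest, an imprinted gene of fat-cell expansion, 13.29, 12.70 and 13.25 and 7.64, 7.56 and 7.64. Angptl4, an inhibitor of lipoprotein lipase, gave 14.64, 14.67 and 14.69 in WAT and 11.95, 10.68 and 10.72 in muscle, where replicate 1 lay above the others. Nampt (-1.48), the NAD-salvage enzyme also called visfatin, and the vessel factor Angpt1 (-1.59) were higher in muscle.

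Droplet proteins divided between the tissues: 12 of 17 were higher in WAT and 5 in muscle (median 1.95). Plin1 gave 11.51, 11.28 and 11.43 in WAT and 7.26, 7.16 and 7.08 in muscle, where it was not detected, and seipin (Bscl2), which builds droplets, 14.72, 14.71 and 14.79 and 11.13, 11.07 and 11.16. Plin5, the perilipin of oxidative tissue that ties droplets to mitochondria, gave 12.22, 12.07 and 12.04 in muscle and 9.29, 9.01 and 9.17 in WAT, and Fitm1, a droplet-forming protein of striated muscle, 10.44, 10.41 and 10.34 and 6.96, 6.90 and 7.08. The other 3 toward muscle differed less: Plin3 (-0.55), Fitm2 (-0.27) and Cidea (-0.94), each of which took the other sign with no normalization (0.46, 0.37 and 0.07).

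Of the lipolysis genes 12 of 13 were higher in WAT (median 2.35), with the hormone-sensitive lipase gene Lipe at 9.999, 10.31 and 10.01 in WAT and 7.91, 7.98 and 7.88 in muscle, the short-chain fatty acid receptor Ffar2 at 12.30, 12.28 and 12.55 and 7.39, 7.30 and 7.31, and the first lipase of the pathway, Pnpla2, at 15.80, 15.94 and 15.84 and 14.24, 14.48 and 14.27. The kinase subunit Prkaca differed by -0.24, a sign that turned with median scaling (0.02). Of 19 lipogenesis genes 14 were higher in WAT and 2 in muscle (median 1.91). The desaturase Scd1 gave 15.97, 15.95 and 15.97 in WAT and 11.63, 11.09 and 11.34 in muscle, and transketolase (Tkt), of the NADPH-making pentose pathway, 13.34, 13.03 and 13.45 and 8.76, 8.85 and 8.71. The 2 toward muscle were Mlxipl, the glucose-sensing factor ChREBP (-1.30), and Acacb, whose product restrains fatty acid oxidation in muscle (-0.88).

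In triglyceride assembly 9 of 13 genes were higher in WAT and 2 in muscle (median 0.74), from Dgat1 (2.26), which adds the last acyl chain, to Gpam (-1.39), a mitochondrial acyltransferase, in muscle. Of 18 fatty acid uptake and binding genes 9 were higher in WAT, 6 in muscle and 3 not past the test. These counts are close to the shares over all genes (45.2% and 37.7%). The median was 0.25, and 0.61 with median scaling. Lipoprotein lipase (Lpl), which both tissues use to take fatty acids from plasma lipoproteins, gave 16.01, 15.99 and 15.98 in WAT and 15.94, 16.001 and 15.99 in muscle (difference 0.02, SE 0.0456, adjusted p = 0.7, limma), and those levels lie at the top of the scale, where a difference could not be read. Its endothelial anchor Gpihbp1 was higher in WAT (12.51, 12.78 and 12.29 against 10.47, 10.83 and 10.51). The fatty acid receptor Cd36 differed by -0.26, a sign that turned with median scaling (0.23). For Fabp4, an abundant fat-cell carrier, the only kept probe was dim, with 8.10, 8.19 and 8.07 in WAT and 7.22, 7.21 and 7.15 in muscle.

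Among adipogenic transcription factors 11 of 16 were higher in WAT and 4 in muscle (median 0.86). Pparg, the master regulator of fat cells, gave 13.09, 13.62 and 13.31 in WAT and 8.86, 9.21 and 8.89 in muscle, and Cebpa, its partner, 8.64, 8.86 and 8.63 and 7.19, 7.23 and 7.05. Toward muscle were Klf5 (-1.04), Cebpb (-0.78), Rxrg (-0.66) and Klf15 (-0.53), the last 2 of which took the other sign with no normalization (0.31 and 0.35). The thermogenic fat genes Ucp1, Dio2 and Elovl3 were not detected on all arrays of either tissue. The 5 measured brown-fat markers were higher in muscle, although 2 of them, Cidea included, took the other sign without normalization. Muscle uses several of these genes, such as Cox8b and Ppargc1a, as well.

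Paired forms of the same enzyme often divided between the tissues. In 32 families a muscle form was set against its relatives; 29 muscle forms were measured, of which 28 were higher in muscle, 24 at least 2-fold, and 0 in WAT. Of 35 other forms measured 26 were higher in WAT and 7 in muscle, against 45.2% and 37.7% of all genes. Several of these, such as Fabp5, Hk3 and Ampd2, were detected on no muscle array and so were kept through WAT alone. For Ampd2 the bound was only 1.003-fold. Several muscle forms, such as Ckm and Pygm, were likewise kept through muscle alone. In 20 families a muscle form higher in muscle stood beside another form higher in WAT, and in 6 another form was also higher in muscle. The families were chosen for their known muscle forms, so the direction of those forms is a check of the tissue rather than a finding.

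Glycogen phosphorylase, which frees glucose from glycogen, gave 12.35, 12.15 and 12.18 for Pygm in muscle and 7.17, 7.15 and 7.21 in WAT, at least 26.4-fold. Its liver form Pygl gave 13.50, 13.69 and 13.79 in WAT and 8.22, 8.20 and 8.11 in muscle (44.6-fold) and its brain form Pygb 11.93, 11.96 and 12.05 and 8.86, 8.90 and 8.88 (8.57-fold). For phosphofructokinase, the committed step of glycolysis, Pfkm was 30.2-fold higher in muscle and Pfkl and Pfkp 5.24- and 2.54-fold higher in WAT. For Pfkl the other kept probe lay at -0.18. Phosphoglycerate mutase Pgam2 was at least 132-fold higher in muscle and Pgam1 2.14-fold higher in WAT. Cytosolic creatine kinase divided into Ckm, at least 196-fold higher in muscle (15.09, 15.16 and 15.09 against 7.07, 6.74 and 6.99), and Ckb, 6.63-fold higher in WAT (13.72, 13.32 and 13.58 against 10.77, 10.70 and 10.96).

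The division reached the machinery of protein synthesis. The elongation factor Eef1a2 gave 15.01, 15.09 and 15.02 in muscle and 7.41, 7.41 and 7.30 in WAT, and the ubiquitous Eef1a1 13.99, 14.02 and 13.94 and 15.83, 15.92 and 15.91. Of the genes for ribosomal protein L3, the muscle form Rpl3l gave 15.39, 15.33 and 15.43 in muscle against 7.25, 7.14 and 7.25 in WAT, at least 235-fold, and Rpl3 was 3.88-fold higher in WAT. Over 49 cytosolic ribosomal protein genes measured, 33 were higher in WAT and 11 in muscle, against 45.2% and 37.7% of all genes, with a median of 0.34. With median scaling the list median was 0.29 and that of all genes 0.43. With no normalization they were 0.755 and 0.90, so the lean of this list against the median gene depended on the scaling.

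Some relatives were higher in muscle with the muscle form. The SERCA2 pump gene Atp2a2, of slow fibres and other cells, gave 15.94, 16.01 and 15.99 in muscle, near the top of the scale, and 11.49, 11.61 and 11.55 in WAT, while Atp2a3 was 3.99-fold higher in WAT. Both lactate dehydrogenase genes were higher in muscle, Ldha (-0.34) and Ldhb (-0.84), and Ldha took the other sign with no normalization (0.12). Of the glucose transporters, Slc2a1 was higher in muscle (-0.88, with the other sign without normalization, 0.14) and Slc2a3 in WAT (2.30). The 1 muscle form that did not pass was the AMPK subunit Prkag3 (8.02, 7.67 and 7.89 in WAT and 7.86, 7.89 and 7.82 in muscle).

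**Figure D4:**
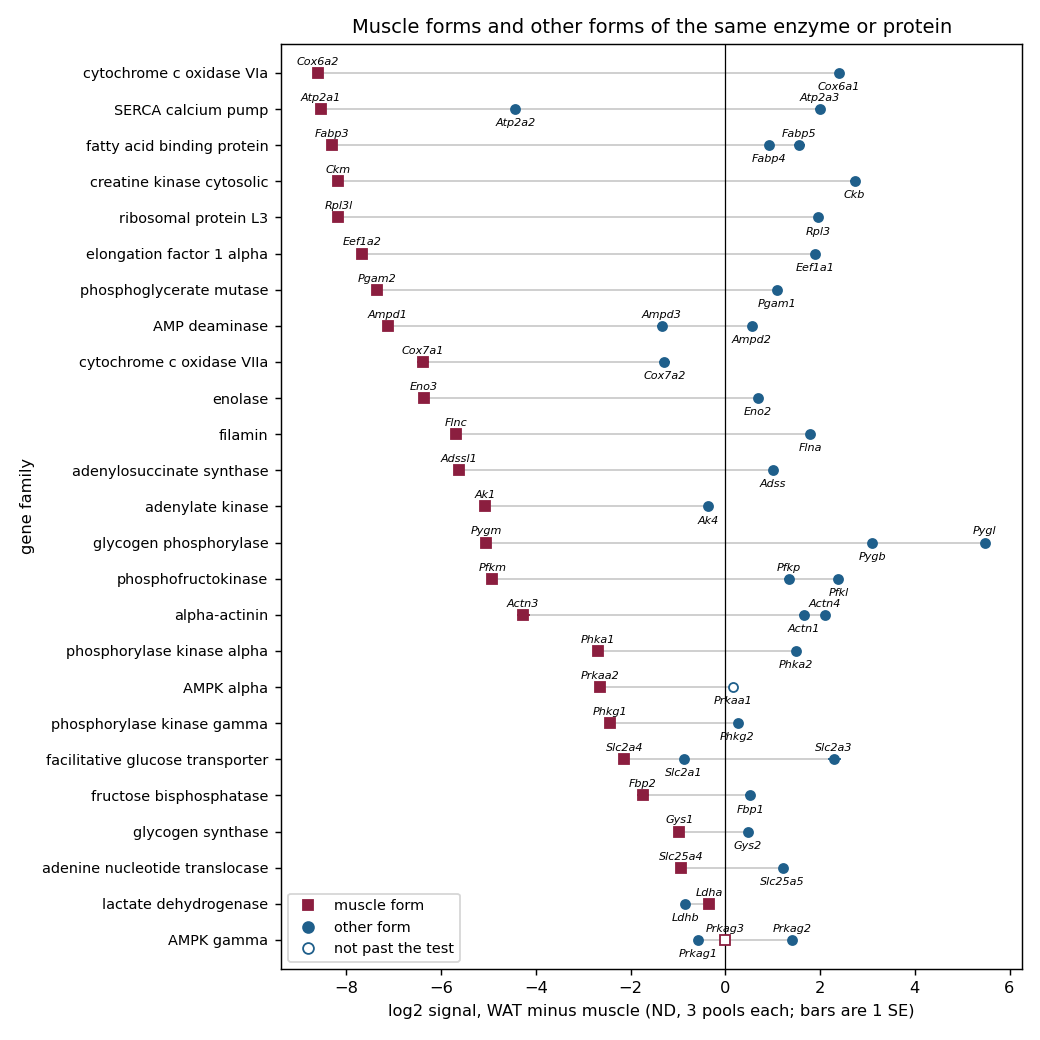
Log2 difference, WAT minus muscle, of the muscle form (squares) and the other forms (circles) in each family with both measured, with bars of 1 SE from limma (mostly smaller than the symbols) and open symbols for genes not past the test. The squares lie left of 0 except Prkag3, from -8.61 for Cox6a2 to 0.00, and most circles lie to the right.

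Of 23 HOX and position genes measured, 13 were higher in WAT and 9 in muscle, against 45.2% and 37.7% of all genes, with a median of 0.59 (1.06 with median scaling). On the array were 14 more that were not detected on all arrays of either tissue. The posterior Hox gene Hoxc10 gave 11.56, 11.49 and 11.56 in muscle and 7.40, 7.60 and 7.41 in WAT, En1, a limb patterning factor, 11.34, 11.15 and 11.33 and 7.45, 7.41 and 7.54, and the hindlimb factor Tbx4 9.19, 9.06 and 9.39 and 7.33, 7.19 and 7.19. Tbx15 was at least 6.84-fold higher in muscle. Toward WAT lay Gata6 (10.71, 10.43 and 10.03 against 7.42, 7.48 and 7.32), a factor of visceral mesoderm, Meis2 (10.39, 10.31 and 10.19 against 7.60, 7.69 and 7.55) and Hoxc6 (12.27, 12.38 and 12.42 against 10.32, 10.40 and 10.44). Within the HoxC cluster the order of differences ran from 1.98 for Hoxc6 through -1.33 for Hoxc9 to -4.07 for Hoxc10, with the anterior gene toward WAT and the posterior genes toward muscle. Hoxc4, Hoxc5, Hoxc8 and Hoxc11 were not detected on all arrays of either tissue.

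Stromal and immune genes were mostly higher in WAT. All 11 measured macrophage markers were higher in WAT (median 2.39), with the complement gene C1qb at 11.68, 11.94 and 11.48 against 8.19, 8.29 and 8.23 and the mannose receptor Mrc1 at 12.04, 12.12 and 12.05 against 8.80, 8.85 and 8.66. Of 10 MHC class II genes 9 were higher in WAT (median 2.77), H2-Ab1 by 4.87 and the invariant chain Cd74 by 4.36, and H2-Ob lay at -0.29, with the other sign without normalization (0.37). Complement components were higher in WAT in 12 of 12 (median 2.86), C4a by 5.69, C2 by 5.31 and properdin (Cfp) by 3.87. Of 30 collagen and matrix genes 27 were higher in WAT and 2 in muscle (median 1.38); the basement membrane linker Nid1 gave 13.89, 13.69 and 13.74 in WAT and 10.23, 10.22 and 10.10 in muscle. Those toward muscle, Col8a1 (-0.45) and Sparcl1 (-0.36), turned sign with median scaling (0.12 and 0.22).

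Markers of several other cell types of a fat pad were also mostly higher in WAT, and those of others were divided. Of 10 measured mesothelial markers 9 were higher in WAT (median 0.80), of 11 endothelial markers 10 (median 0.80), of 11 fibroblast and progenitor markers 11 (median 0.95, and 1.43 with median scaling) and of 4 erythroid markers 4 (median 1.46). Of the 10 mesothelial markers, 7 were detected on no muscle array and 1 on all 3, so most were kept through WAT alone. Several of them were dim in both tissues. Of 9 smooth muscle and pericyte markers 4 were higher in WAT and 3 in muscle, near the shares over all genes (45.2% and 37.7%), with a median of 0.16 (0.41 with median scaling). Their summed signal was 32630 to 43740 in WAT against 9012 to 11140 in muscle, with Mylk (2.46) and Acta2 (2.38) furthest toward WAT and Rgs5 (-1.02) toward muscle. Of 5 nerve and Schwann cell markers 3 were higher in WAT and 2 in muscle (median 0.87). Summed signals were 4047 to 4189 in WAT against 1577 to 1638 in muscle for mesothelium, 60140 to 65870 against 24250 to 28930 for endothelium, 22960 to 25940 against 3479 to 3645 for macrophages and 65890 to 70590 against 20730 to 27040 for erythroid genes. On the ND liver arrays the mesothelial sum was higher than in WAT, 7976 to 8298, so it is not particular to the fat pad. The other sums given here were lower in liver than in WAT. Upk3b, a mesothelial membrane protein, gave 10.02, 10.23 and 10.29 in WAT and 7.34, 7.46 and 7.60 in muscle. The part of these cells in the results above was not tested.

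Of 25 insulin and IGF pathway genes 11 were higher in WAT and 9 in muscle, close to the shares over all genes (median 0.11), and with median scaling 15 and 5 (median 0.43). Igf1, the growth factor, gave 12.13, 12.14 and 12.45 in WAT and 8.54, 8.24 and 8.51 in muscle. Of 16 clock genes 3 were higher in WAT and 10 in muscle, with a median of -0.45 that became 0.08 with median scaling, 0.55 with no normalization and -0.55 with neqc. The period gene Per2 gave 10.87, 11.17 and 10.89 in WAT and 8.83, 9.87 and 9.27 in muscle, and the clock-controlled protease Usp2 12.21, 12.73 and 12.33 in muscle and 9.11, 9.28 and 9.01 in WAT. The sources used here do not give the hour of sampling. With no normalization every list median moved toward WAT: it was -1.26 for glycolysis and glycogen, -0.78 for oxidative phosphorylation, -0.69 for the citric acid cycle, -0.36 for fatty acid oxidation, -0.28 for the neuromuscular junction and -0.60 for muscle transcription factors, and for fat and stroma 1.64 for adipogenic factors, 1.35 for triglyceride assembly and 2.22 for collagens and matrix.

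The same tissue difference was then read in mice on the HFD and on UR. Those arrays entered the ND values above only through the quantile normalization over all 27 arrays; normalized alone, the 6 ND arrays gave 4829 genes higher in WAT and 4033 in muscle. Of the 1775 genes at least 2-fold higher in WAT with the ND, 1770 (99.7%) were higher in WAT with the HFD and 1765 (99.4%) with UR, and 1533 and 1464 were so at least 2-fold, among 1920 and 1878 such genes in all. Of the 1308 toward muscle, 1303 (99.6%) and 1301 (99.5%) were higher in muscle, 1176 and 1163 at least 2-fold, among 1434 and 1407 in all. The size of the difference did change: a limma interaction over 18 arrays passed for 3430 genes (32.1%) with the HFD and 3954 (37%) with UR, and was at least 1 on the log2 scale for 265 (2.48%) and 356 (3.33%). Adssl1, the muscle adenylosuccinate synthase, differed by -5.63 with the ND, -3.23 with the HFD and -3.21 with UR. Pvalb differed by -6.91 with the ND, -4.45 with the HFD and -3.86 with UR.

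Of the lists, adipocyte markers had a median difference of 4.35 with the ND, 3.74 with the HFD and 3.67 with UR, myofibre markers -7.55, -7.21 and -7.23, and macrophage markers 2.39, 3.02 and 2.97. MHC class II genes stood at 2.77, 3.79 and 3.85, and fatty acid oxidation genes at -1.08, -1.62 and -1.67. Every list of at least 10 measured genes whose ND median was 1 or more in size kept its direction with both diets.

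**Figure D5:**
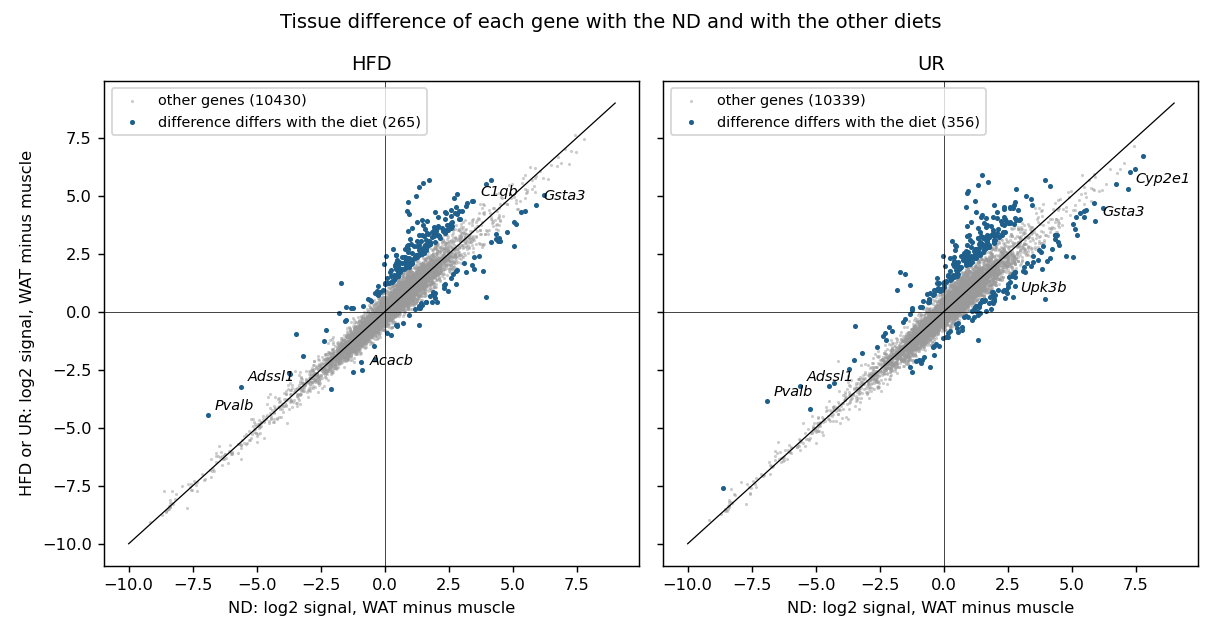
Log2 difference, WAT minus muscle, of each gene with the ND (horizontal) against the HFD (left) and UR (right), with 3 pools for each tissue and diet; the line marks equal differences and blue points differ by at least 1 with an adjusted p under 0.05 (265 genes with the HFD and 356 with UR). Of the genes at least 2-fold apart with the ND, 99.4 to 99.7% pass the test on the same side of 0 with each diet.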

How the data were processed

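Per the authors' methods, pooled total RNA was amplified, labelled with biotin and hybridized to Illumina MouseWG-6 v2 BeadChips read in BeadStudio. The authors deposited the unnormalized signal intensity of every probe on every array. No source says if background had been subtracted, and the lowest signal was 77.3. The authors deposited a detection p-value beside each signal, which was used only to choose probes. They also deposited quantile-normalized log2 values, in which the 9 muscle columns equal the WAT columns in all 45281 rows, and these were not used. The extract protocol in the labels names adipose tissue and liver, and the methods name muscle as well.

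Signals were quantile-normalized over the 27 arrays and log2-transformed with no background correction. The filter on detection (p under 0.05 on every array of WAT or of muscle) kept 19365 probes. The platform annotation lists 34903 probes; 34885 carry a single symbol, 18 with several were left unnamed, and 34807 were matched to RefSeq genes (GRCm38.p6) with 0 symbols changed. Of the kept probes 16393 were named. The kept probe with the highest mean stood for each gene; 3943 genes had more than 1, of which 304 had a probe past the test the opposite way. Groups were compared with lmFit and eBayes (intensity trend) of limma 3.58.1 in R 4.3.3, two-sided, with Benjamini-Hochberg adjustment over all kept probes, named or not. The same scripts were tested on simulated data. Nothing in the sources used here says which pools are separate animals, so p-values measure only the spread between pools, which may be technical.

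A fold against a tissue in which no array detected the probe is a bound: the brighter tissue's mean of normalized log2 values against the other's mean of, per array, the higher of the lowest signal well above background (here, detected) and the probe's own. Genes named were drawn from the 15 of largest difference each way among genes past the test with no overlap between the arrays. They were also drawn from the paired forms, and in each list from the 4 of smallest p. Members past the test against a list's majority were also eligible, and not every eligible gene is named. After their values were seen 18 others were named (Angptl4, Gapdh, Gata6, Gpihbp1, Hoxc6, Lipe, Lpl, Mef2d, Mest, Myh1, Myh4, Myh7, Myog, Ndufv3, Pdk4, Pnpla2, Pvalb, Rbp4). The members, lists and pairs were chosen with earlier results of these data known. Alternatives were other scalings, neqc, other filters and probe choices, other variance models, a replicate block, rank products, the methods' t-test and leaving out each array.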

Additional observations from a re-analysis of the deposited data

Results flagged for a closer look

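The tissue difference of the genes below differed between diets by at least 1 on the log2 scale with an adjusted p under 0.05 in limma's interaction, and each value is the change of the difference, WAT minus muscle, from that with the ND. The arrays of the ND are shared by both diet comparisons, so agreement between them is not independent. In muscle metabolism and calcium buffering, the change with the HFD and with UR was 2.40 and 2.42 for Adssl1 and 2.46 and 3.05 for Pvalb. Among glycogen phosphorylases and glucose transport, the change with the HFD and with UR was -1.15 and -1.38 for Pygl, -1.01 and -1.35 for Pygb and -1.26 and -1.41 for Slc2a3. Among droplet and fatty acid genes, the change with the HFD and with UR was -1.25 and -1.20 for Cidea and -1.64 and -1.31 for Acacb. Among enzymes of glyceroneogenesis, glucocorticoid activation and detoxification, the change with the HFD and with UR was -1.12 and -1.11 for Pck1, -1.22 and -1.05 for Hsd11b1 and -1.30 and -1.999 for Gsta3. Among complement genes, the change with the HFD and with UR was 1.31 and 1.13 for C1qb and -1.02 and -1.04 for C2. Among secreted and transport proteins, the change with the HFD and with UR was -1.11 and -1.81 for Rbp4 and -1.19 and -1.76 for Slc1a3. Idh1 met the rule with the HFD (1.15, from 1.76 to 2.91), and whether it differs from the change with UR was not tested. A further group met it with UR, and whether these changes differ from those with the HFD was not tested. It held the fat genes Adipoq (-1.24, from 6.73 to 5.49), Cidec (-1.09, from 7.80 to 6.71), Cdo1 (-1.25, from 7.28 to 6.02), Cyp2e1 (-1.90, from 7.21 to 5.31) and Tmem45b (-1.31, from 7.47 to 6.16). It also held Cox6a2 (1.02, from -8.61 to -7.59), Per2 (-1.60, from 1.65 to 0.06) and Upk3b (-2.07, from 2.71 to 0.64). With the ND, Cox6a2 was near the top of the scale in muscle and not detected in WAT, so that its change cannot be read as a size. Cidec, Tmem45b, Pck1, Rbp4 and Upk3b were not detected in muscle with the ND, and Adipoq, Cyp2e1 and Adssl1 were near the top of the scale in the tissue where they were higher, so that the sizes given for them are limited in the same way.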

How the results depend on the processing

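The scaling set the balance between the tissues. With median scaling 6673 genes were higher in WAT and 2305 in muscle, and 2869 and 835 at least 2-fold; with no normalization 8525 and 1140, and 4823 and 545; with neqc the 2-fold counts were 2871 and 1997. All kept probes, named or not, gave 8227 and 7485, with 2206 at least 2-fold in muscle, since more features were counted. Rank products at a false discovery rate under 0.05 gave 386 genes in WAT and 367 in muscle, all at least 2-fold. The methods' t-test gave 2571 genes higher in muscle (2568 after Benjamini-Hochberg) and 3264 in WAT (3258), where a log2 difference over 0.5 was also required. Leaving out 1 array gave 4705 to 4778 genes in WAT and 3900 to 3970 in muscle, 1753 to 1810 and 1295 to 1333 at least 2-fold, and 2815 to 3361 interactions with the HFD and 3440 to 3785 with UR.

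Whether equal replicate numbers pair the tissues is unknown, and they were not treated as pairs: deviations of same-numbered pools correlated at 0.0836, 0.132 and 0.13, while each of the 6 arrays correlated best with its own number, a hint from the data and not the design. A replicate block gave 4852 and 4039 genes, 1775 and 1308 at least 2-fold, and 3414 and 3938 interactions.

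Of 148 named genes, 136 kept direction and call with median scaling and 129 with no normalization; the cause of the changes was not tested. Signs turned without normalization for Cd36 (0.70), Cidea (0.0745), Col8a1 (0.59), Fitm2 (0.37), H2-Ob (0.37), Klf15 (0.35), Ldha (0.12), Mef2d (0.46), Myog (0.49), Ndufv3 (0.44), Plin3 (0.46), Prkaca (0.49), Rxrg (0.31), Slc2a1 (0.14) and Sparcl1 (0.68). With median scaling they turned for Cd36 (0.23), Col8a1 (0.12), Lpl (-0.33), Myog (0.0185), Prkaca (0.0173) and Sparcl1 (0.22). Lpl stood at -0.10 as the mean of its probes and Prkag3 at -0.0175 with neqc. With 1 array left out the difference ran from -0.000346 to 0.0322 for Lpl, from -0.0487 to 0.0152 for Ndufv3, from -0.0764 to 0.0928 for Prkag3 and from -4.43 to 2.81 for Asph, whose sign turned without any of WAT replicates 1, 2 and 3, when another probe became the brightest.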
